A study of Mus musculus with 12 samples.

Results

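Ffar2, Ffar4, Hcar1, Hcar2 and Olr1, 5 of the 18255 genes listed in the deposited tables, encode cell-surface receptors for fatty acids, for the hydroxy acids lactate and 3-hydroxybutyrate, and for oxidised low-density lipoprotein. They were followed in 3T3-L1 cells, an established mouse preadipocyte line that stores lipid once induced to differentiate. A control line (NC) and a line overexpressing LIGHT, the cytokine encoded by Tnfsf14, were sampled undifferentiated and after differentiation into beige adipocytes, giving 12 RNA-seq libraries in 4 groups of 3 (NC-Undiff, LIGHT-Undiff, NC-Diff and LIGHT-Diff). The cocktail held dexamethasone, IBMX, rosiglitazone, triiodothyronine, indomethacin and insulin, and maintenance medium kept rosiglitazone, triiodothyronine and insulin, so every differentiated library of either line had been exposed to a PPARγ agonist. The way LIGHT was introduced, its promoter, whether a line is 1 clone and the day of harvest are not stated by the sources at hand. Nor do the labels say whether replicates are separate cultures. A p-value here rests only on the spread between libraries of the same group, estimated over all groups together, and that spread may be technical. Ffar2 was noted for its rise on differentiation of NC cells and Olr1 for its rise in LIGHT cells, and the other 3 receptors were taken with them by name. Levels across the stages are therefore given as a description without a test, and tests are given for LIGHT against NC, although the libraries of those tests are the same ones.

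Ffar2 (GPR43) is a receptor of the short-chain fatty acids acetate, propionate and butyrate that couples to Gi and Gq proteins, and Ffar4 (GPR120) is a receptor of long-chain fatty acids, omega-3 acids among them. Hcar1 (GPR81) senses lactate and Hcar2 (GPR109A) senses 3-hydroxybutyrate and the drug niacin, and both act through Gi in fat cells, where they lower cyclic AMP and restrain lipolysis, the release of fatty acids from stored triglyceride. Olr1 (LOX-1) is of another kind, a C-type lectin-like scavenger receptor best known from endothelial cells and macrophages, which takes up oxidised low-density lipoprotein. Ffar1 and Ffar3 are the closest relatives of Ffar2, and Hcar1 and Hcar2 lie beside each other on chromosome 5.

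The 250 bases before an annotated start site are shown for the receptors found in the RefSeq promoter table (build GRCm38.p6), because these genes were near or at 0 in undifferentiated cells and present in all differentiated libraries. Ffar2 has 4 annotated starts, of which the one farthest upstream is printed, Ffar4, Hcar1 and Olr1 have 1 each, and Hcar2 has no entry. Sequences run 5′ to 3′ toward the start. Capitals mark matches on either strand to AGGTCA (the nuclear receptor half-site), TTGCNNAA (a C/EBP motif) or TGANTCA (an AP-1 motif).
Ffar2 (chr7:30823776-30824025, minus strand): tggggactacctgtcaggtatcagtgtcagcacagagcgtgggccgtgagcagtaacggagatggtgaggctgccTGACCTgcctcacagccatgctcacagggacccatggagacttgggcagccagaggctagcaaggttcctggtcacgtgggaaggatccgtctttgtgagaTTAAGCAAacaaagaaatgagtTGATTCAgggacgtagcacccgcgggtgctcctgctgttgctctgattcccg
Ffar4 (chr19:38096829-38097078, plus strand): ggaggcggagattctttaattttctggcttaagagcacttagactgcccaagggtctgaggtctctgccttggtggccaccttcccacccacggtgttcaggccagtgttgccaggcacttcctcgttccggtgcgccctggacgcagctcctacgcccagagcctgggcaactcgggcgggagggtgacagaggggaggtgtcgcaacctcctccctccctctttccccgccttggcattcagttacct
Hcar1 (chr5:123880004-123880253, minus strand): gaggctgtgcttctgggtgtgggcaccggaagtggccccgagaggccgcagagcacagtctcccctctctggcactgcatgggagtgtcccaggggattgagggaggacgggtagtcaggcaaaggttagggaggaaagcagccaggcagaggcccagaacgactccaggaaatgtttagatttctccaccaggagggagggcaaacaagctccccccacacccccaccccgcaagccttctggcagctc
Olr1 (chr6:129507166-129507415, minus strand): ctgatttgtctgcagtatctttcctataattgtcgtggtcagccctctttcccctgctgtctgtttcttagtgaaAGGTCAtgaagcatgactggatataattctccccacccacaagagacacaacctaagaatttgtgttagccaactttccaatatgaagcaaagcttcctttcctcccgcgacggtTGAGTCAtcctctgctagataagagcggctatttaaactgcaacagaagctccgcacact
In the windows printed, the half-site lies 170 to 175 bases before the start of both Ffar2 and Olr1, on the minus strand of the window for Ffar2 and on its plus strand for Olr1. TGANTCA lies 46 to 52 bases before the Ffar2 start and 54 to 60 bases before the Olr1 start. The Ffar2 window also has a TTGCNNAA match, 67 to 74 bases before the start. The windows of the other Ffar2 starts differ. The same half-site lies 84 to 89 bases before one start and 137 to 142 bases before another, as their windows overlap. It is not in the window of a further start, and TGANTCA is in none of them. TTGCNNAA lies 141 to 148 bases before the start without a half-site, and 16 to 23 bases before the start with the half-site at 137 to 142. The Ffar4 and Hcar1 windows have no match to these letters, and none of the 4 windows has TATAAA (the TATA box), the other motif searched on both strands. Of 32851 windows of this length from RefSeq, 14% hold the half-site, 9.56% TTGCNNAA, 6.75% TGANTCA and 12.4% TATAAA. These matches describe the letters only.

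Libraries held 16334079 to 19686675 expected counts, so that 3 counts were worth 0.152 to 0.184 CPM (counts per library size, with TMM factors), and floors and intervals on counts cover counting error only. Tnfsf14, the overexpressed gene, had 0, 1 and 0 counts in NC-Undiff, 38, 53 and 58 in LIGHT-Undiff, 113, 0 and 0 in NC-Diff, and 0, 148 and 122 in LIGHT-Diff. The libraries labelled NC-Diff 1 and LIGHT-Diff 1 thus go against their labels. They are kept in their labelled groups, and values that use them are also given without them. The 7 adipocyte markers checked (Adipoq, Fabp4, Plin1, Cidec, Lipe, Cebpa, Pparg) summed to 40.4 to 66.9 CPM before and 12994.7 to 18776.4 CPM after differentiation. Of the other cell types that carry these receptors, the macrophage markers Adgre1 and Tyrobp were listed in no library, Itgam, Laptm5 and Fcer1g reached at most 2 counts in any library and Itgax 5. The other leukocyte markers were present, with maxima of 272 counts for Cd14, 84 for Cd53, 43 for Aif1, 39 for Lyz2, 23 for Csf1r and 11 for Ptprc. The 10 listed leukocyte markers summed to 22.9 to 23.7 CPM in NC-Undiff, 15.9 to 17.4 in LIGHT-Undiff, 7.69 to 8.46 in NC-Diff and 7.79 to 9.38 in LIGHT-Diff. Of the 7 listed endothelial markers Vwf reached 42 counts, Pecam1 and Tek 14, and Cdh5, Kdr, Esam and Emcn at most 7. They summed to 3.21 to 3.37 CPM in NC-Undiff, 1.45 to 2.54 in LIGHT-Undiff, 0.871 to 1.39 in NC-Diff and 0.975 to 1.48 in LIGHT-Diff.

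Ffar2 (gene 233079 in the deposited tables) was absent or at the edge of detection before differentiation and present in every differentiated library. It had 0 counts in all 3 NC-Undiff libraries and 0, 1 and 1 in LIGHT-Undiff. After differentiation NC libraries 1, 2 and 3 held 133, 274 and 321 counts (8.27, 16.6 and 17.3 CPM), and LIGHT libraries 1, 2 and 3 held 330, 133 and 113 counts (20.6, 7.02 and 6.89 CPM). NC-Diff 2 and 3 and the library labelled LIGHT-Diff 1 were high, and the library labelled NC-Diff 1 lay with LIGHT-Diff 2 and 3. In NC cells the differentiated level was at least 248-fold higher, and at least 296-fold without NC-Diff 1, with the undifferentiated group set to the floor of 3 summed counts. In LIGHT cells the ratio of summed counts scaled to depth was 306 (95% counting interval 84.4 to 2530), and 190 (52.1 to 1580) without LIGHT-Diff 1.

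Ffar4 (gene 107221), the long-chain fatty acid receptor, was the lowest of the 5 after differentiation, also per transcript length. It had 1, 0 and 0 counts in NC-Undiff and 0 in each LIGHT-Undiff library. NC-Diff libraries held 31, 95 and 91 counts (1.93, 5.75 and 4.91 CPM) and LIGHT-Diff libraries 91, 47 and 25 (5.67, 2.48 and 1.52 CPM). The order of libraries was like that of Ffar2, with NC-Diff 2 and 3 and LIGHT-Diff 1 above the other 3. The NC ratio was 222 (95% counting interval 39.4 to 8810) on a single undifferentiated count, and 278 (49.2 to 11000) without NC-Diff 1. In LIGHT cells Ffar4 was at least 57.8-fold higher on the same floor, and at least 37.1-fold without LIGHT-Diff 1.

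Hcar2 (gene 80885), the 3-hydroxybutyrate receptor, was the highest of the 5 per transcript length in differentiated libraries, though not in CPM in all of them. It had 0, 0 and 2 counts in NC-Undiff and 2 in each LIGHT-Undiff library. NC-Diff libraries held 271, 556 and 663 counts (16.9, 33.7 and 35.8 CPM) and LIGHT-Diff libraries 596, 277 and 332 (37.1, 14.6 and 20.2 CPM). Again NC-Diff 2 and 3 and LIGHT-Diff 1 stood above the other 3 differentiated libraries. The ratio of differentiated to undifferentiated was 762 in NC cells (95% counting interval 211 to 6300; 910 without NC-Diff 1) and 214 in LIGHT cells (97.8 to 583; 157 without LIGHT-Diff 1).

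Hcar1 (gene 243270), the lactate receptor next to it in the genome, varied less between differentiated libraries. It had 0, 1 and 1 counts in NC-Undiff and 0, 2 and 0 in LIGHT-Undiff. NC-Diff libraries held 324, 442 and 465 counts (20.2, 26.8 and 25.1 CPM) and LIGHT-Diff libraries 438, 413 and 352 (27.3, 21.8 and 21.4 CPM). NC-Diff 2 and 3 and LIGHT-Diff 1 were again the upper 3 libraries, over a narrower range. The ratio was 630 in NC cells (95% counting interval 174 to 5200) and 640 in LIGHT cells (177 to 5290), and 677 and 591 without the 2 libraries. The longest run of bases shared exactly by the transcripts of Hcar1 and Hcar2 was 18, against 10 to 13 for the other pairs of receptors.

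Olr1 (gene 108078), the scavenger receptor, had the most counts before differentiation, 36 summed over NC-Undiff, where no other receptor exceeded 6 in an undifferentiated group (Hcar2 in LIGHT-Undiff). NC-Undiff libraries held 6, 19 and 11 counts (0.346, 1.07 and 0.641 CPM) and each LIGHT-Undiff library held 0. After differentiation NC libraries held 434, 293 and 317 counts (27.0, 17.7 and 17.1 CPM) and LIGHT libraries 343, 411 and 377 (21.4, 21.7 and 23.0 CPM). The order of libraries differed from that of the other receptors, since NC-Diff 1 was highest and NC-Diff 2 and 3 lowest. The ratio in NC cells was 29.7 (95% counting interval 21.3 to 42.6; 25.3 without NC-Diff 1). In LIGHT cells Olr1 was at least 401-fold higher on that floor, and at least 406-fold without LIGHT-Diff 1.

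**Figure D1:**
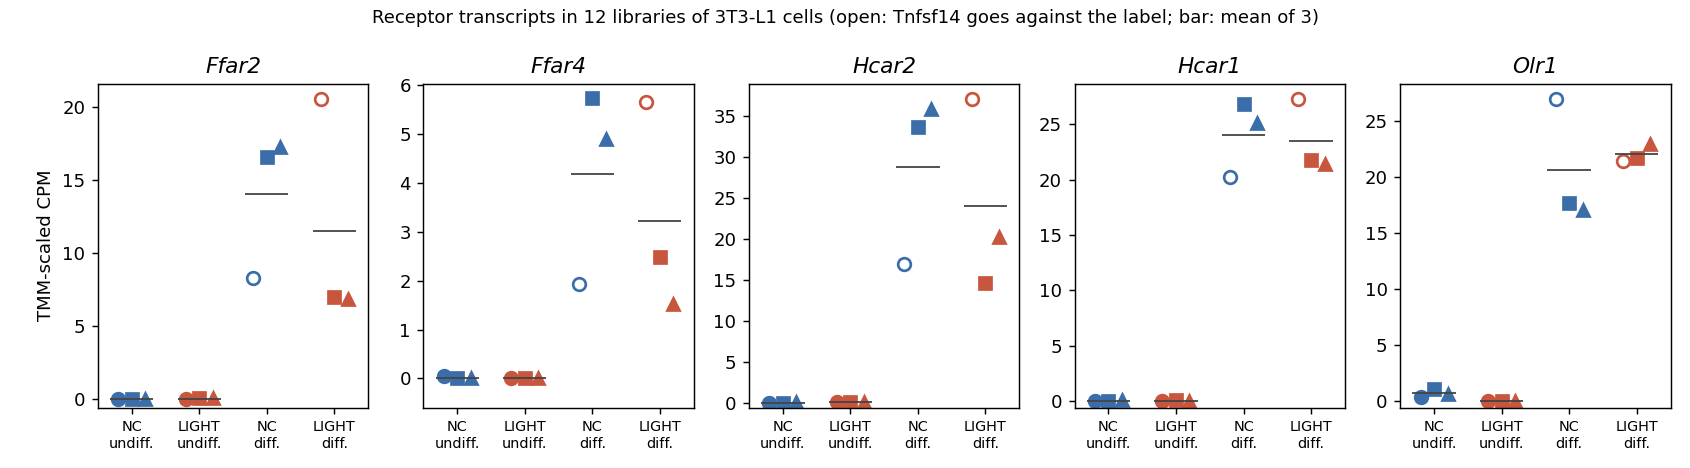
TMM-scaled CPM (y axis) of the 5 receptors in each library, by group (x axis); circles, squares and triangles are replicates 1, 2 and 3, open symbols are the 2 libraries whose Tnfsf14 goes against the label, and bars are group means. Undifferentiated libraries lie at or near 0, and for Ffar2, Ffar4 and Hcar2 the open symbols lie with the filled symbols of the other line.

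For all 5 receptors the differentiated libraries lay above the undifferentiated ones without overlap, in both lines. Of 12993 genes tested 33.6% were higher without overlap in NC cells and 33.0% in LIGHT cells, but the members were chosen on these comparisons, so the count carries no weight. All 5 passed the low-count filter through their differentiated libraries, in which each reached 25 counts or more, while no undifferentiated library exceeded 19. In these bulk libraries, more cells that express a receptor and more RNA per cell cannot be told apart.

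Per transcript length the receptors kept a partly stable order. In FPKM, the deposited unit that divides by gene length and library total, Hcar2 was the highest and Ffar4 the lowest in each of the 6 differentiated libraries. Hcar2 measured 9.21, 18.0 and 18.7 FPKM in NC-Diff and 19.7, 8.17 and 11.2 in LIGHT-Diff. Ffar4 measured 1.52, 4.47 and 3.7 and then 4.36, 2.01 and 1.22. Hcar1 lay between 6.32 and 8.25 FPKM, Ffar2 between 3.31 and 9.63 and Olr1 between 4.69 and 7.73. These 3 overlapped and changed places: Ffar2 was above Olr1 in NC-Diff 2 and 3 and LIGHT-Diff 1, and below it in the other 3.

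**Figure D2:**
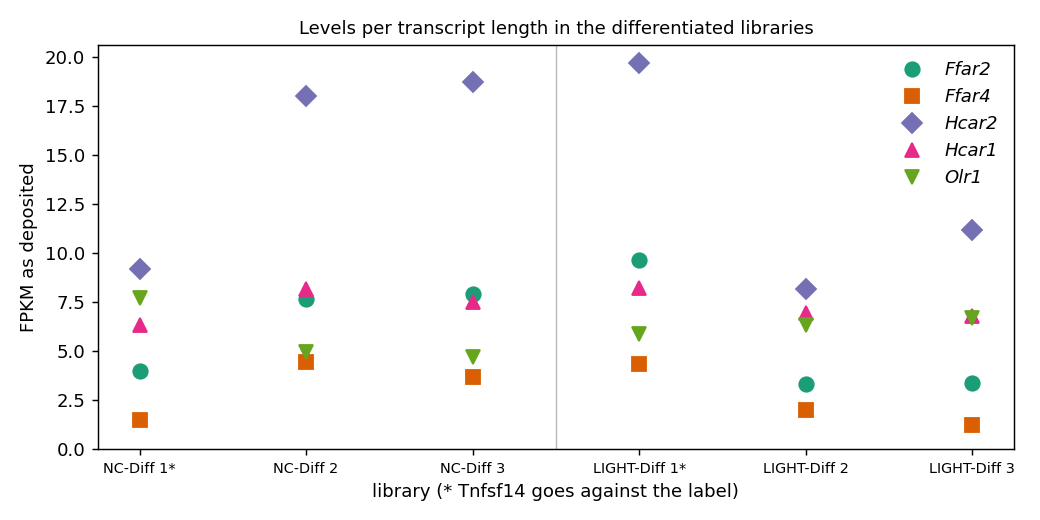
Deposited FPKM (y axis) of the 5 receptors in each differentiated library (x axis); asterisks mark the 2 libraries whose Tnfsf14 goes against the label. Hcar2 is the highest and Ffar4 the lowest receptor in every library, while Ffar2, Hcar1 and Olr1 change places between 3.31 and 9.63 FPKM.

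Before differentiation, Olr1 was the receptor that differed between the lines. With 36 counts over NC-Undiff and 0 over LIGHT-Undiff it was at least 12.5-fold lower in LIGHT cells (floor as above), and all 3 NC libraries lay above all 3 LIGHT libraries, as 27.7% of genes did. edgeR's quasi-likelihood test gave an adjusted p of 0.00154, and 2.13e-05 in the fit without the 2 doubted libraries, which belong to neither group but enter its estimate of spread (44.4% of genes called there). Olr1 was noted for its rise in LIGHT cells, which is measured from these same LIGHT-Undiff libraries. That choice favours a lower level in LIGHT-Undiff, so these p-values are not independent of it. Of the 5 receptors 1 was called, where 26.5% of the 12993 genes tested were called and 14.2% called lower. Ffar2, Ffar4, Hcar1 and Hcar2 did not exceed 2 counts in an undifferentiated library, so no fold is given, and their adjusted p lay between 0.537 and 0.983. A difference in these 4 was not detectable at this depth. Summed leukocyte and endothelial markers were also lower in LIGHT-Undiff than in NC-Undiff, without overlap. Of 5 leukocyte markers tested 3 were called lower and 1 higher (3 and 2 of 6 in the fit without the 2 doubted libraries). Cd14, the largest part of the sum, was at 15.2 ± 0.342 CPM in NC-Undiff and 11.4 ± 0.658 in LIGHT-Undiff (SD, n = 3). Lyz2, the lysozyme gene of macrophages, was at 2.09 ± 0.148 CPM in NC-Undiff and 0.461 ± 0.17 in LIGHT-Undiff. Aif1 went the other way, at 0.555 ± 0.0746 and 1.9 ± 0.358 CPM. Ptprc, not tested as labelled, had 0 to 2 counts per library in NC-Undiff and 4 to 11 in LIGHT-Undiff. Of the endothelial markers 0 of 2 were called as labelled and 1 of 3 in the fit without those libraries, Vwf, the von Willebrand factor gene, at 2.14 ± 0.308 and 1.01 ± 0.191 CPM (SD, n = 3; log2 fold change -1.07, edgeR adjusted p = 0.0307). The part of these markers in the Olr1 difference was not tested.

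After differentiation, no receptor was called between the lines as labelled. Ffar2 was at 14.1 ± 5.03 CPM in NC-Diff and 11.5 ± 7.86 in LIGHT-Diff (SD, n = 3), Ffar4 at 4.2 ± 2.01 and 3.23 ± 2.17, and Hcar2 at 28.8 ± 10.4 and 24.0 ± 11.7. Hcar1 was at 24.0 ± 3.44 and 23.5 ± 3.28, and Olr1 at 20.6 ± 5.53 and 22.0 ± 0.843. For all 5 the groups overlapped (6.78% of genes did not), and edgeR's adjusted p lay between 0.917 and 0.982. The 95% intervals of the log2 fold change, LIGHT over NC, ran from -1.54 to 0.77 for Ffar4, the widest, and from -0.43 to 0.36 for Hcar1, the narrowest. Of the 12993 genes 0, or 0.0%, were called by edgeR, 523 had an unadjusted p under 0.05, and DESeq2 called 1 of the 18230 genes it tested.

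Without the libraries labelled NC-Diff 1 and LIGHT-Diff 1, which leaves 2 libraries per differentiated group, Ffar2, Hcar2 and Ffar4 were lower in LIGHT cells. Ffar2 was at 17.0 ± 0.52 CPM in NC-Diff and 6.95 ± 0.0966 in LIGHT-Diff (SD, n = 2), 2.45-fold lower with a 95% interval from 1.86 to 3.22 (log2 fold change -1.29, SE 0.19, edgeR adjusted p = 4.94e-05). Since Ffar2 was noted for its rise in NC cells, which uses these same NC-Diff libraries, the choice favours a higher NC level. Its interval and p-value are not independent of that choice. Hcar2 went from 34.7 ± 1.5 to 17.4 ± 3.96 CPM, 2.01-fold lower (1.6 to 2.53; log2 fold change -1.01, adjusted p = 7.88e-05 in edgeR). Ffar4 went from 5.33 ± 0.595 to 2.0 ± 0.678 CPM, 2.65-fold lower (1.51 to 4.66; log2 fold change -1.41, adjusted p = 0.00998 in edgeR). The Ffar4 call was lost when LIGHT-Diff 3 (-1.11, adjusted p = 0.122) or NC-Diff 2 (-1.3, adjusted p = 0.0866) was left out as well, each fit then resting on 1 library in that group, assumed to vary like the others.

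Hcar1 and Olr1 were not called in that fit. Hcar1 was at 25.9 ± 1.18 CPM in NC-Diff and 21.6 ± 0.252 in LIGHT-Diff (log2 fold change -0.27, 95% interval -0.58 to 0.04, edgeR adjusted p = 0.185). Olr1 was at 17.4 ± 0.447 and 22.3 ± 0.9 (0.35, -0.01 to 0.71, adjusted p = 0.129). The libraries of both genes did not overlap, Hcar1 lower and Olr1 higher in LIGHT cells, but with 2 libraries per group 34.1% of the 12993 genes were lower without overlap and 33.0% higher. Of the 5 receptors 3 were called, all lower, where 31.1% of the 13150 genes tested without the 2 libraries were called and 16.4% called lower. Whether the line difference of Hcar1 or Olr1 differed from that of the other receptors was not tested.

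**Figure D3:**
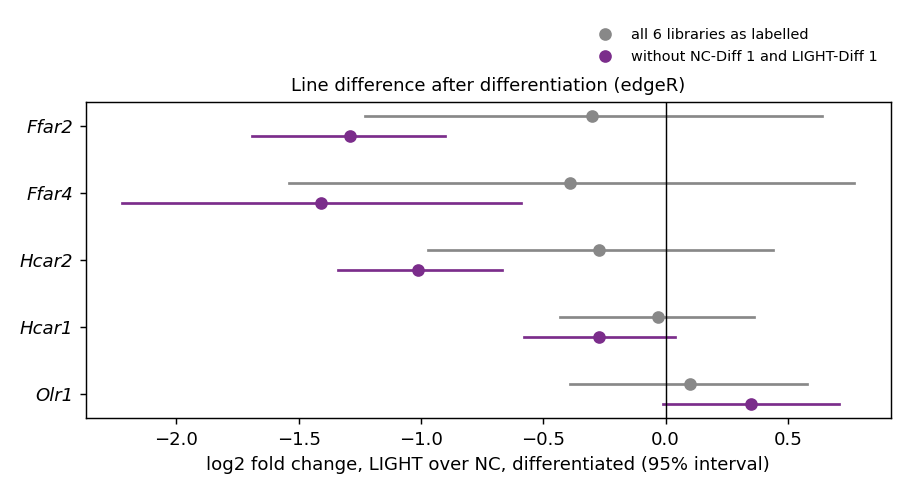
Log2 fold change of LIGHT over NC in differentiated cells (x axis) with its 95% interval from edgeR for each receptor (y axis), as labelled in grey and without the 2 doubted libraries in purple. All grey intervals include 0, and the purple ones of Ffar2, Ffar4 and Hcar2 lie below it.

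Adipocyte markers moved in the same direction in these libraries. Their sum was 17606.1 and 18776.4 CPM in NC-Diff 2 and 3 and 18673.6 in the library labelled LIGHT-Diff 1, against 13096.6 and 13497.0 in LIGHT-Diff 2 and 3 and 12994.7 in the library labelled NC-Diff 1. Without the 2 doubted libraries 5 of 7 were called lower in LIGHT cells and 0 higher, with a median log2 fold change of -0.37, against -0.01 over all genes. The share of all genes called was 31.1%, with 16.4% called lower. Fabp4, a fatty acid carrier, changed by -0.67, Adipoq, the hormone adiponectin, by -0.47 and Pparg by -0.37. Preadipocyte and fibroblast markers were called higher in 4 of 7 and lower in 2, led by Pdgfra from 96.8 ± 3.32 to 246 ± 15.5 CPM (SD, n = 2). Beside the marker median of -0.37 stood -1.29 for Ffar2, -1.41 for Ffar4 and -1.01 for Hcar2, but -0.27 for Hcar1 and 0.35 for Olr1. Whether a receptor differed from the markers, and the part of the markers in the receptor result, were not tested.

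Other receptors of metabolites were mostly scarce. Of 17 listed by function, 12 had a count in some library and 4 were tested. Ffar1 and Ffar3 were listed in no library, and Gpr84, a receptor of medium-chain fatty acids, had 0 to 4 counts in undifferentiated libraries, 3, 19 and 10 in NC-Diff and 9, 7 and 8 in LIGHT-Diff. Of the 4 tested, 3 rose and 1 fell on differentiation of NC cells (63.9% of all genes called, 32.2% higher), and 3 rose and 0 fell in LIGHT cells (58.6% called, 29.5% higher). Without the 2 doubted libraries it was 3 and 1 in each line (70.7% of all genes called in NC and 64.1% in LIGHT cells), since Adora2b was then called lower in LIGHT cells as well (-0.9, edgeR adjusted p = 0.0361). Genes near 0 in undifferentiated cells enter the test only through the differentiated libraries, so such counts are partly set by the filter. Gpr35, an orphan-class receptor linked to kynurenic acid, went from 0.855 ± 0.442 to 7.75 ± 4.51 CPM in NC cells and from 0.167 ± 0.065 to 4.59 ± 2.1 in LIGHT cells (SD, n = 3), or to 10.3 and 3.4 CPM without the 2 doubted libraries. Adora1, the Gi-coupled adenosine receptor of fat cells, was at 0 in all undifferentiated libraries and at 2.25 ± 0.882 CPM in NC-Diff and 2.32 ± 0.711 in LIGHT-Diff (2.69 and 1.95 without them). Adora2b, a Gs-coupled adenosine receptor, fell in NC cells from 5.7 ± 0.959 to 2.04 ± 0.606 CPM (2.38 without NC-Diff 1). Between the differentiated lines without the 2 doubted libraries, 2 of the 4 were called lower in LIGHT cells (16.4% of all genes lower). Gpr35 was at 10.3 ± 0.978 and 3.4 ± 0.496 CPM (SD, n = 2; log2 fold change -1.6, edgeR adjusted p = 0.000234) and Adora2b at 2.38 ± 0.234 and 1.17 ± 0.678 (-1.06, adjusted p = 0.0435).

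Scavenger and lipoprotein receptors beside Olr1 went both ways. Of 13 tested, 6 rose and 2 fell on differentiation in each line, with medians of 0.08 in NC and 0.35 in LIGHT cells. The share called was near that of all genes (63.9% and 58.6%). Without the 2 doubted libraries 6 rose and 4 fell in NC and 7 rose and 2 fell in LIGHT cells (medians 0.22 and 0.51), again near the shares of all genes (70.7% and 64.1%). Cd36, which takes up oxidised lipoprotein and long-chain fatty acids, went from 1.7 ± 0.24 to 807 ± 78.7 CPM in NC cells and from 1.51 ± 0.896 to 788 ± 102 in LIGHT cells (SD, n = 3), or to 762 and 846 without those libraries. Scarb1, the high-density lipoprotein receptor, rose in NC cells from 68.7 ± 1.58 to 245 ± 29.1 CPM (262 without NC-Diff 1). Msr1, the macrophage scavenger receptor, had 1 to 7 counts in undifferentiated and at most 1 in differentiated libraries, and Clec7a, a relative of Olr1 encoded beside it, at most 5 in any. Before differentiation 2 of 13 were called higher in LIGHT cells and 1 lower (26.5% of all genes called), or 4 and 3 without the 2 doubted libraries (44.4%). Cd68 was lower, from 1.26 ± 0.245 CPM in NC-Undiff to 0.401 ± 0.0623 in LIGHT-Undiff (-1.64, adjusted p = 0.0169, edgeR). Scara5 (1.48, adjusted p = 3.11e-05) and Vldlr (0.49, adjusted p = 0.00896) were higher. Cd36 did not pass this test (-0.19, adjusted p = 0.736, edgeR). After differentiation, without the 2 doubted libraries, 5 of 13 were called higher in LIGHT cells and 3 lower (31.1% of all genes called). Scarf2 was at 0.68 and Scarb1 at -0.49 in log2 fold change. Cd36 was not called (0.14, adjusted p = 0.234, edgeR).

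The G proteins, effectors and regulators through which the fatty acid and hydroxy acid receptors act changed in both directions. Of 18 tested, 8 rose and 3 fell in NC cells (median 0.18) and 8 rose and 6 fell in LIGHT cells (median 0.09), where 63.9% and 58.6% of all genes were called. When the 2 doubted libraries were left out, 11 rose and 4 fell in NC (median 0.28) and 8 rose and 7 fell in LIGHT cells (median 0.07), where 70.7% and 64.1% of all genes were called. Pde3b, the phosphodiesterase that lowers cyclic AMP in fat cells, went from 21.9 ± 1.01 to 117 ± 3.82 CPM in NC cells (SD, n = 3; 115 without NC-Diff 1). Plcb1, a phospholipase C downstream of Gq, went from 14.2 ± 1.7 to 58.9 ± 11.8 (65.3 without NC-Diff 1), and Adcy5, an adenylyl cyclase inhibited by Gi, from 0.115 ± 0.0586 to 3.54 ± 0.47 (3.48). Between the differentiated lines without the 2 doubted libraries 3 of 18 were called higher and 4 lower in LIGHT cells (median -0.02), among them Adcy3 (-0.58) and Plcb1 (-0.49). The share of all genes called there was 31.1%.

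Genes of lipolysis, the process that the hydroxy acid receptors restrain, rose in 9 of 9 tested in each line. Of all genes tested 32.2% were called higher in NC cells and 29.5% in LIGHT cells. Adrb3, at 0.0192 CPM in NC-Undiff, passed the low-count filter only through differentiated libraries, so such counts are partly set by the filter. Plin1, the lipid droplet coat protein, went from 1.16 ± 0.161 to 544 ± 53.8 CPM in NC cells (575 without NC-Diff 1), and Lipe, hormone-sensitive lipase, from 8.87 ± 1.19 to 665 ± 124 (737; SD, n = 3). The median log2 fold change was 6.05 in NC and 5.17 in LIGHT cells. Without the 2 doubted libraries 9 of 10 tested rose and 0 fell in each line (70.7% and 64.1% of all genes called). The medians were then 4.62 and 3.86 over 1 more gene. Between the differentiated lines without the 2 doubted libraries 5 of 10 were called lower in LIGHT cells and 0 higher (median -0.26). Over all genes 31.1% were called in that comparison and 16.4% called lower. G0s2, an inhibitor of adipose triglyceride lipase, was at 464 ± 4.66 and 268 ± 6.78 CPM (SD, n = 2; log2 fold change -0.8).

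Genes that make or use the ligands moved with differentiation as well. Of 13 tested genes of lactate, ketone body and short-chain acid metabolism reported here 11 rose and 0 fell in each line, with medians of 1.38 and 1.33. Over all genes 63.9% were called in NC and 58.6% in LIGHT cells, 32.2% and 29.5% higher. With the 2 doubted libraries left out 11 rose and 0 fell in NC cells (median 1.54), and 11 rose and 1 fell in LIGHT cells (median 1.22). The shares of all genes called were then 70.7% and 64.1%. Acss2, which activates acetate, went from 9.63 ± 1.43 to 140 ± 28.7 CPM in NC cells (156 without NC-Diff 1), and Ldhb, a lactate dehydrogenase, from 59.1 ± 1.26 to 359 ± 14 (365; SD, n = 3). Between the differentiated lines without the 2 doubted libraries 6 of these 13 were called lower in LIGHT cells (median -0.26), where 16.4% of all genes were. Ldha, the lactate-forming dehydrogenase, was at 3580 ± 90.4 and 2490 ± 36.0 CPM (SD, n = 2; log2 fold change -0.53, edgeR adjusted p = 3.08e-06). Slc16a1, a transporter of lactate and ketone bodies, was at 85.6 ± 1.77 and 66.4 ± 2.8 CPM (-0.37).

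Of 5 tested enzymes of lipid oxidation and clearance of oxidised lipid 2 rose and 3 fell on differentiation in each line, with or without the 2 doubted libraries. Over all genes 63.9% were called in NC and 58.6% in LIGHT cells, or 70.7% and 64.1% without those libraries. Pla2g7, which hydrolyses oxidised phospholipid in lipoprotein, fell in NC cells from 33.4 ± 2.32 to 3.53 ± 0.563 CPM (3.71 without NC-Diff 1), and Ptgs2, cyclooxygenase 2, from 51.2 ± 4.82 to 3.14 ± 1.34 (3.9; SD, n = 3). Between the differentiated lines without the 2 doubted libraries 2 of 5 were called lower and 0 higher in LIGHT cells (16.4% of all genes lower). They were Ptgs2 (-0.96) and Gpx4, the peroxidase that reduces lipid hydroperoxides (-0.39). Of 13 genes in a list of Pparg and its targets 13 rose in NC and 12 in LIGHT cells, with or without the 2 libraries. As labelled, 32.2% and 29.5% of all genes were called higher. Slc2a4, at 0.192 CPM in NC-Undiff and 0.0197 in LIGHT-Undiff, passed the low-count filter only through differentiated libraries, so these counts too are partly set by the filter. Fabp4, Adipoq, Cidec and Pparg of this list are also among the adipocyte markers, as are Plin1 and Lipe of the lipolysis list. In the comparison of differentiated lines without the 2 libraries 7 were called lower and 0 higher in LIGHT cells (median -0.47, 16.4% of all genes lower). Slc2a4, the insulin-responsive glucose transporter, was at 83.7 ± 0.309 and 44.4 ± 0.111 CPM (SD, n = 2; log2 fold change -0.92).

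**Figure D4:**
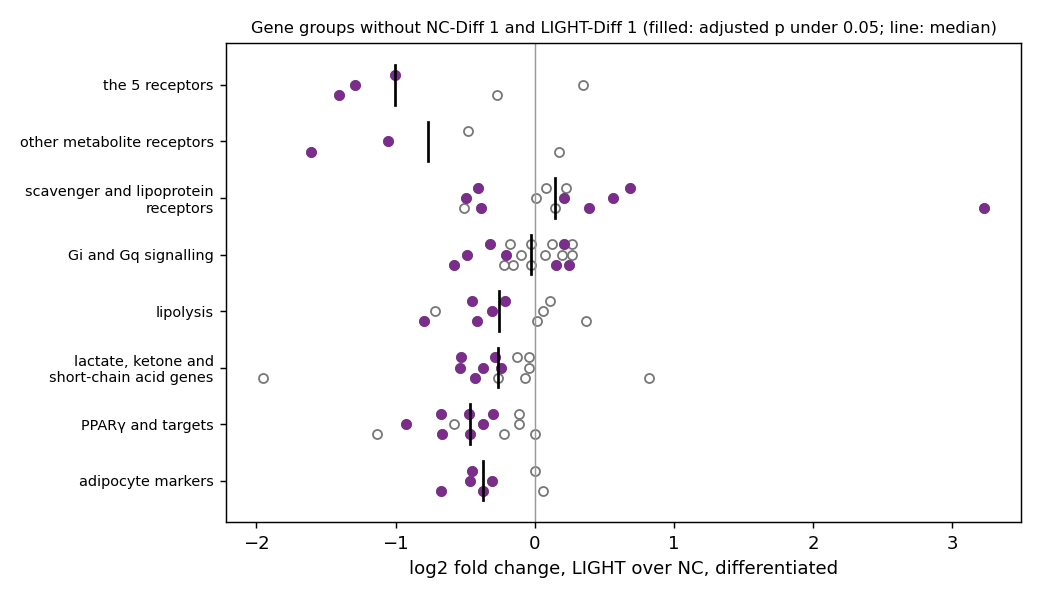
Log2 fold change of LIGHT over NC in differentiated cells without the 2 doubted libraries (x axis), 1 point per tested gene, by gene group (y axis); filled points passed an adjusted p of 0.05 in edgeR and vertical lines are medians. Ffar2, Ffar4 and Hcar2 lie left of the medians of the lipolysis (-0.26) and adipocyte marker (-0.37) groups, Hcar1 (-0.27) lies near them and Olr1 (0.35) to the right. Adipocyte markers are repeated in the lipolysis group (Plin1, Lipe) and in the PPARγ group (Pparg, Fabp4, Cidec, Adipoq).

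Genes whose level followed each receptor most closely over the 12 libraries were found by Pearson's r of log2(CPM + 0.5), given as a description, since the 2 stages alone give high values. For the genes named, r over the 10 libraries without the doubted ones lay between 0.994 and 0.999. For Ffar2 they were the amine oxidase Aoc3 (0.999), Timp4 and S100a1 (both 0.998). For Ffar4 they were Gid4, Ndufb9 and Camk1g (all 0.995). For Hcar1 they were the lipid droplet protein Plin4, Fam83a and Lgals12 (all 0.999), and for Hcar2 Pex19, Crat and Pim3 (all 0.999). For Olr1 they were Arxes2, Tmem120a and Hist1h2bc (all 0.996).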

How the data were processed

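Total RNA of 12 libraries was sequenced, in 4 groups of 3 as their labels state. The authors deposited 1 table per library with expected counts per gene, which need not be whole, the FPKM and a gene length, per the file headers. All 43 member values above 0 were whole (within 1e-09), and a gene not in a library's table was read as 0. Per the submitters' processing notes, mm8 was the genome build. Neither the aligner, the counting program nor the use of strand is stated in the sources at hand.

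Expected counts were rounded and tested with edgeR 4.0.16 (R 4.3.3): TMM scaling, filterByExpr with a minimum count of 10, all 12 libraries in 1 fit with a coefficient per group, the quasi-likelihood test, and Benjamini-Hochberg adjustment over the 12993 genes tested (threshold 0.05). Simulated data were used to check the fit. Repeats left out each library in turn or both doubted ones, added a replicate block, used DESeq2 1.42.0, scaled by RLE or by library totals, and set the minimum count to 30 or to none. Ratios against a group at 0 use a floor of 3 counts over the group; others have exact 95% counting intervals. The members, gene lists and tests were chosen with earlier results of these data known. Genes of a list are named where they are among the 4 largest called changes with at least 1 CPM; relatives of the members (Ffar1, Ffar3, Gpr84, Cd36, Msr1, Clec7a) are named whatever their values, and up to 3 genes per member by likeness. 1 gene of the lactate, ketone body and short-chain acid list is not reported here, and the counts and medians of that list leave it out. Lyz2 and Kdr, Emcn and other markers come from marker lists. Promoter sequences are from RefSeq (GRCm38.p6), matched by gene ID for 4 of the 5 members; transcripts compared are those of GENCODE M21.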

Additional observations from a re-analysis of the deposited data

How the results depend on the processing

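Leaving out the libraries labelled NC-Diff 1 and LIGHT-Diff 1 changed the most. In LIGHT against NC, differentiated, it moved the genes called from 0 to 4084 and the receptors called from 0 to 3, with log2 fold changes of -1.29 for Ffar2, -1.41 for Ffar4 and -1.01 for Hcar2. It moved the genes called before differentiation from 3445 to 5836, and for the interaction from 1213 to 4079. The cause was not tested. DESeq2 called 1 gene in LIGHT against NC, differentiated. Leaving out 1 library at a time gave 2238 (without LIGHT-Undiff 2) to 4280 genes before differentiation, 0 to 0 after it, and 680 (without LIGHT-Undiff 2) to 1869 (without NC-Diff 1) for the interaction; the latter also moved without NC-Undiff 2 (767) or 3 (792) or LIGHT-Undiff 1 (735). Log2 fold changes between the differentiated lines as labelled then ranged from -1.02 to -0.04 for Ffar2, -1.07 to -0.05 for Ffar4, -0.73 to -0.01 for Hcar2, -0.16 to 0.05 for Hcar1 and -0.02 to 0.33 for Olr1, none called. The sign turned for Hcar1 without NC-Diff 2 (0.05) or 3 (0.01) or LIGHT-Diff 2 (0.02) or 3 (0.03), and for Olr1 without NC-Diff 3 (-0.02). On the 10 libraries left, DESeq2, library totals and a replicate block, chosen after seeing the data, kept the 3 receptors called (adjusted p from 1.77e-05 to 0.00017 for Ffar2, 0.0142 to 0.0221 for Ffar4, 1.2e-05 to 0.000224 for Hcar2). Leaving out 1 more library there gave -1.34 to -1.27 for Ffar2, -1.25 to -0.79 for Hcar2 and -1.81 to -1.11 for Ffar4, whose call was lost in 2 of those fits. The lower Olr1 in undifferentiated LIGHT cells was called in each alternative run (adjusted p from 1.01e-05 to 0.00661). Both this result and that of Ffar2 use libraries on which the choice of these receptors rested. Deviations of same-numbered libraries from their labelled group means had correlations from -0.618 to 0.0973. The means of the differentiated groups include the 2 doubted libraries, so these values cannot decide whether the replicate numbers pair the libraries. Between NC-Undiff and LIGHT-Undiff, which hold neither, the correlations were -0.00627, 0.00931 and 0.0446. The replicate block moved the interaction to 747 genes and left 0 called between the differentiated lines. Library totals in place of TMM put the median change over all genes on differentiation of NC cells at -0.113 (log2). Of the members' untested values from fits with a library left out, 13 moved by 1 SD or more and 107 did not. In the other settings, with ratios of differentiated group means included, 7 moved and 73 did not. The fitted change on differentiation was a rise in each fit. Depth limits the receptors in undifferentiated cells, where 4 of the 5 had at most 2 counts per library.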

Other observations

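Genome neighbours of the receptors were read from the RefSeq gene order, 3 protein-coding genes on each side. Beside Ffar2 on chromosome 7, Dmkn, a gene known from skin keratinocytes, went from 0.077 CPM in NC-Undiff to 5.48 in NC-Diff and from 0.0524 to 4.9 in the LIGHT groups (to 7.41 and 2.7 without the 2 doubted libraries). Sbsn, from the same cluster of epidermal genes, went from 16.4 to 61.9 CPM in NC cells (log2 fold change 1.92, edgeR adjusted p = 2.95e-05) and from 10.3 to 56.6 in LIGHT cells (2.45, adjusted p = 6.02e-06), or to 70.9 and 42.8 CPM without those libraries (2.14 and 2.05). Krtdap, between Dmkn and Ffar2, was at 0 in both undifferentiated groups and at 0.424 and 0.439 CPM in NC-Diff and LIGHT-Diff (0.512 and 0.347 without them), and was not tested. Without the 2 doubted libraries Sbsn (-0.74, adjusted p = 1.83e-06, edgeR) and Dmkn (-1.46, adjusted p = 0.00853) were lower in differentiated LIGHT than NC cells, as Ffar2 was. Over all genes 31.1% were called in that comparison and 16.4% called lower. Whether the changes of these neighbours are linked was not tested.

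Around the other receptors, apart from the paired Hcar genes themselves, no called neighbour rose by more than 0.69 on the log2 scale in NC cells, or by more than 0.62 without NC-Diff 1 and LIGHT-Diff 1. Next to the Hcar1 and Hcar2 pair on chromosome 5, Kntc1, a mitotic checkpoint gene, fell on differentiation of NC cells by 1.54 on the log2 scale and Denr rose by 0.57 (-1.53 and 0.61 without them). Beside Ffar4 on chromosome 19, Myof (-1.97, or -2.1 without them) and Cep55 (-1.64, or -1.6) fell in NC cells. Beside Olr1 on chromosome 6, the lectin genes Clec7a, Clec1a and Clec9a were at or below 0.226 CPM in every group mean and were not tested, and Gabarapl1 rose by 0.69 in NC cells (0.62 without them).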
